A study of Mus musculus with 6 samples.

Results

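The interferon-inducible p200 HIN genes Ifi203, Ifi204, Ifi205, Mnda, Mndal and Aim2 were followed in sorted stem and progenitor cells of mouse bone marrow. They were taken by symbol from the deposited expression table, and all 6 were found among its 22475 genes. RNA came from lineage-negative, cKit-positive, Sca1-positive cells, a flow cytometry gate that is rich in haematopoietic stem and multipotent progenitor cells. The KO group was homozygous both for FLT3-ITD, a duplicated stretch within the kinase receptor FLT3 that leaves it constantly active, and for a deletion of miR-155. The control group was homozygous for FLT3-ITD too and had wild type miR-155, so neither group had normal FLT3. Each group had 3 libraries, each made from RNA of 3 mice in 1 pool. The p-values therefore speak of the variation among pools, not among mice. The labels give no strain, age or sex.

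The p200 proteins take their name from a HIN domain of about that many residues which binds DNA, and most also carry a pyrin domain through which they bind other pyrin proteins. Aim2 is the best known: it senses double-stranded DNA in the cytosol, recruits the adaptor Pycard (ASC) and so activates caspase-1 in the AIM2 inflammasome. Ifi204 is often treated as the mouse counterpart of human IFI16, a nuclear and cytosolic DNA sensor that signals through STING, and is also known from monocyte and macrophage differentiation. Interferons induce the family, and its members are well expressed in myeloid cells.

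The libraries held between 6843129 and 7601317 counts in the KO group and between 8136914 and 9443615 in the control group. The lncRNA Gm26667 at the miR-155 host locus had 4, 14 and 4 counts in the KO libraries, against 33, 48 and 36 in the control libraries. Kit, a gene of the sort gate, had 243 to 348 CPM (counts relative to the TMM-scaled library total) in KO and 242 to 387 CPM in control libraries, and Ly6a, which encodes Sca1, had 110 to 128 CPM in KO and 105 to 122 CPM in control libraries. The pools of replicate number 1 stood apart in both groups. The summed level of 13 macrophage markers was 841 CPM in KO replicate 1 against 279 and 384 CPM in the other KO libraries, and 1083 CPM in control replicate 1 against 209 and 243 CPM in the other control libraries. The fold changes of the members are therefore given with and without both libraries of number 1.

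The 6 genes lie in a single cluster on chromosome 1 (GRCm38, the assembly also called mm10). With 8 further p200 genes of the table it spans 0.681 Mb from the start of Aim2 (173350879 to 173466040, plus strand) to the end of Ifi205 (174011998 to 174031810, minus strand). Between them, on the minus strand, are Ifi204 (173747293 to 173766943), Mndal (173849126 to 173942491), Mnda (173896345 to 173913046) and Ifi203 (173920407 to 173942672). All 6 are annotated as protein-coding in GENCODE M21, which calls Mnda Ifi211. In that annotation the Mndal locus spans all of Mnda and most of Ifi203, and 37 exon bases of Ifi203 overlap other exons on the same strand, chiefly those of Mndal.

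**Figure D1:**
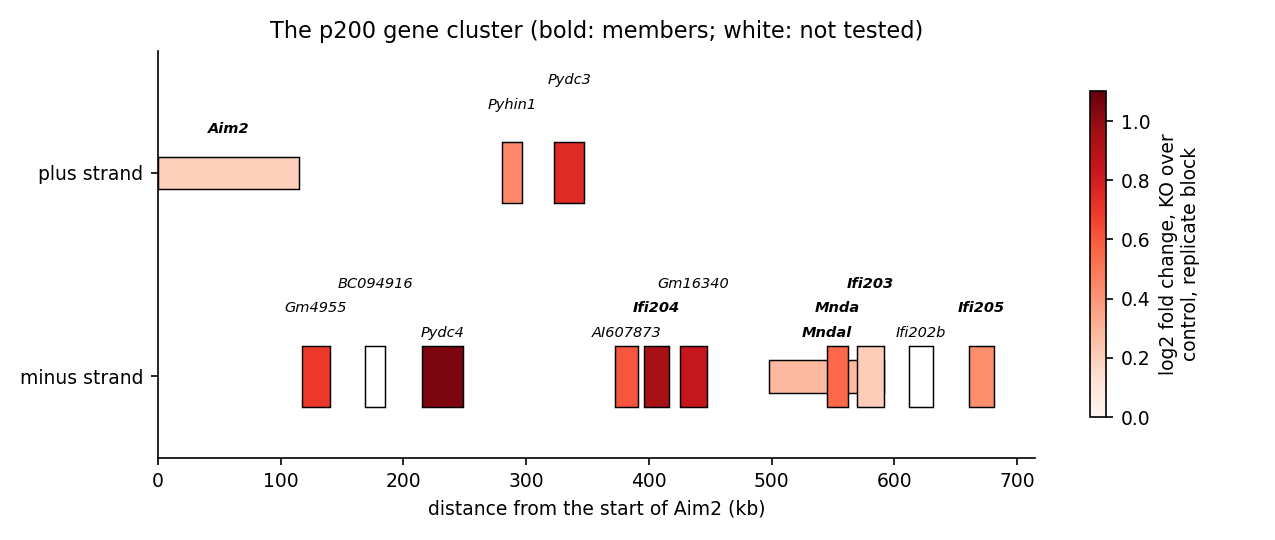
Position of the 14 p200 genes relative to the start of Aim2 (x axis, kb) on the plus and minus strand. Colour gives the log2 fold change, KO over control, with the replicate block, the darkest being Pydc4 (1.05) and Ifi204 (0.95), and white genes were not tested.

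Promoter sequences show what the members share upstream. RefSeq windows (GRCm38.p6) of 250 bases before to 50 bases after the start were at hand for 5 of the 6 members and for 12 of the 14 p200 genes, and Ifi204 was among those without one. The core of the interferon-stimulated response element, taken as GAAA, any 2 bases and GAAA again and searched on both strands, was found in windows of 4 of the 5 members: Ifi203, Mndal, Mnda and Ifi205. It was found in 9 of the 12 p200 genes, against 3.99% of 27025 genes with a window. The gamma-activated site core TTCNNNGAA was found in 0 of the 5 members and in 1 of the 12 p200 genes, Ifi202b, against 9.55% of genes. No p200 window held both cores, so no matches overlapped. The stretches below are shown because they carry these matches and are set so that the matches, in capitals, line up, each written in the direction of transcription with 40 bases before the match and 20 bases after it. They are chr1:173942498-173942567 (Ifi203), chr1:173880194-173880263 (Mndal), chr1:173913054-173913123 (Mnda), chr1:174031860-174031929 (Ifi205), chr1:173741821-173741890 (AI607873) and chr1:173599316-173599385 (Pydc4), all on the minus strand, and AI607873 and Pydc4 are p200 relatives shown for comparison. The first base of the match lies 35 bases before the start in Ifi203, 36 in Mndal, 37 in Mnda, 134 in Ifi205, 41 in AI607873 and 73 in Pydc4.
Ifi203: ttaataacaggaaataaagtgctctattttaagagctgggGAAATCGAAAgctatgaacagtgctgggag
Mndal: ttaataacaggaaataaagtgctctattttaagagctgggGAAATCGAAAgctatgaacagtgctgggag
Mnda: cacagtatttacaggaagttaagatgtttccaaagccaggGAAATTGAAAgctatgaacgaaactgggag
Ifi205: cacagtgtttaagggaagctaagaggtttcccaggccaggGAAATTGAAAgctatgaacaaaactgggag
AI607873: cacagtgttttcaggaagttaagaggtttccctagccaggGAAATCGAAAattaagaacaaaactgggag
Pydc4: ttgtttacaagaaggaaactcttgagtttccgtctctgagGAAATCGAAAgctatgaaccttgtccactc

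The Ifi203 and Mndal stretches are identical in 70 of 70 bases, and those of Mnda and Ifi205 in 62 of 70. AI607873 matches Mnda and Ifi205 in 60 of 70 bases each. Pydc4 matches Mndal and Ifi203 in 42 of 70 bases each and Mnda and Ifi205 in 34 of 70 each. Mndal has a further RefSeq start whose window holds a match on the opposite strand, Ifi203 has one whose window holds none, and the Ifi205 window holds a further match on the opposite strand. The window of Aim2 holds neither core. A match of letters is a description of the window and not evidence of binding.

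The likeness of the genes also bears on how well their counts can be told apart. Of the distinct 50-base stretches in the coding transcripts of Mnda, 72.8% recur in transcripts of other genes, 44.7% in those of Ifi205. For Ifi205 the share is 49.6%, nearly all of it with Mnda (49.5%). It is 30.2% for Ifi204 (23.2% with Mnda), 30.1% for Mndal (13.6% with Mnda) and 16.5% for Ifi203 (12% with the pseudogene Gm16340). Aim2 shares 0.8%. Among the other tested p200 genes the share is 35.1% for Pyhin1, 26.3% for Gm16340, 25.9% for Pydc3, 25.6% for Gm4955, 21.8% for Pydc4 and 7.3% for AI607873. The sources used here name neither the read counter nor its treatment of shared reads or strand. The counts of Mnda and Ifi205 are therefore uncertain where reads could have been split or dropped. To a lesser extent this holds for Ifi204, Mndal, Pyhin1, Gm16340, Pydc3, Gm4955 and Pydc4.

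The deleted miRNA has no match of its whole seed in the annotated 3' UTRs of these genes. Its mature form miR-155-5p (RefSeq, GRCm38.p6, chr16:84714143-84714165, plus strand) is shown because the seed, bases 2 to 8, in capitals, sets which letters a target would hold.
mmu-miR-155-5p: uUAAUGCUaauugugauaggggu

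The matching 8mer AGCATTAA was found in the 3' UTR of 0 of 13 p200 genes with an annotated one, against 3.4% of 15795 genes of the table. The 7mer AGCATTA was also found in 0 of 13, against 9.4%. Sites that match only part of the seed were not searched. The longest 3' UTRs of the 13 ran from 165 bases (Mndal) to 2129 bases (Ifi203), and the shares over all genes were not matched for length.

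Levels between genes are given in FPKM, which are scaled for gene length and library size, as deposited. On this scale the members fell into a high and a low group, a split that depends on the gene lengths used. Mndal had 190, 145 and 125 FPKM in KO replicates 1, 2 and 3, against 138, 131 and 108 FPKM in control replicates 1, 2 and 3. Ifi205 had 229, 112 and 87.7 FPKM in KO and 129, 83.8 and 87.0 FPKM in control libraries. Both lay above every other member in every library. Ifi203 followed with 41.3 ± 8.16 FPKM in KO and 35.3 ± 3.22 FPKM in control libraries (SD, n = 3 each). Ifi204 had 37.4 ± 12.4 FPKM in KO and 19.4 ± 6.82 FPKM in control libraries (SD, n = 3 each). Aim2, the inflammasome sensor, had 24.6 ± 4.38 and Mnda 25.0 ± 10.6 FPKM in KO libraries, against 21.3 ± 2.16 and 16.6 ± 3.81 FPKM in control libraries (SD, n = 3 each).

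Ordered by the mean over all libraries, neighbours did not separate in every library except at the step between the groups. Mndal exceeded Ifi205 in 5 of 6 libraries, Ifi205 exceeded Ifi203 in 6 of 6, Ifi203 exceeded Ifi204 in 5 of 6, Ifi204 exceeded Aim2 in 4 of 6 and Aim2 exceeded Mnda in 5 of 6. Aim2 exceeded Ifi204 in 2 of the 3 control libraries and in 0 of the 3 KO libraries. The FPKM used 1907 bases for Mndal, 1613 for Ifi205, 6706 for Ifi203 and 3501 for Aim2. With counts per kilobase of the longest annotated transcript, Ifi203 (68.5 CPM per kilobase) came before Ifi205 (59.8) and Aim2 (28.3) before Ifi204 (27.8), so only the places of Mndal at the top and Mnda at the bottom do not depend on the length chosen here. As a share of the summed FPKM of the 6 members, Ifi204 made up 8.75%, 8.91% and 8.80% in the KO libraries, against 7.27%, 5.53% and 5.15% in the control libraries. Every KO share lay above every control share, which was not tested. Ifi204 had the largest fold change of the 6 members, given below. A larger share in KO follows from that and is no separate result.

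**Figure D2:**
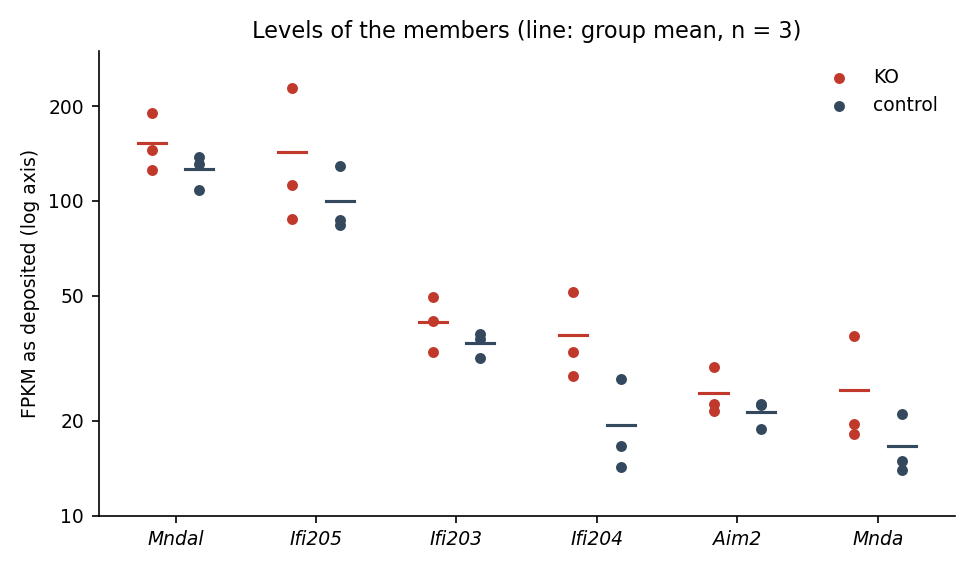
FPKM as deposited (log axis) of each member in the 3 KO libraries (left of each pair) and the 3 control libraries (right), with a line at the group mean. Mndal and Ifi205 have at least 83.8 FPKM in every library, and the other members at most 51.3 FPKM.

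The comparison asked how the RNA of these genes differs when miR-155 is missing. Ifi204 was about 1.93-fold higher in the KO, and by nearly the same factor within each pair of equally numbered libraries, whereas the other members had log2 fold changes of 0.21 to 0.59 that differed between the pairs. Log2 fold changes are KO over control and are given with their standard error (SE). They come from edgeR's quasi-likelihood test over 13217 genes, with Benjamini-Hochberg adjustment and a threshold of 0.05. All 6 members were tested. Without a block for the replicate number 0 members passed (1 had an unadjusted p under 0.05, beside 1.41% of genes that did and were higher), while 0.0151% of the genes tested passed as higher. DESeq2 called 0 members, beside 0.053% of genes that it called higher. With the replicate number as a block, which takes out what equally numbered libraries share, Ifi204 rose and the other 5 did not pass, beside 0.318% of genes that rose (4 members had an unadjusted p under 0.05, beside 4.43% of genes that did and were higher). Of the 6 fold changes 6 were positive, beside 50.2% of all. The median log2 fold change of the 6 was 0.41 without and 0.35 with the block, against 0.0010 and 0.0004 over all genes tested. In bulk RNA, more cells that express a gene and more RNA per cell cannot be told apart.

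Ifi204 had 121, 72.6 and 61.5 CPM in KO replicates 1, 2 and 3, against 62.8, 37.1 and 32.1 CPM in control replicates 1, 2 and 3. The groups overlapped, since control replicate 1 lay just above KO replicate 3, but each KO library was about as far above the control library of its number. Within the pairs the log2 ratio was 0.95, 0.97 and 0.94. These ratios lie closer together than the blocked SE given next (0.072), so their near equality is not a measure of precision. The log2 fold change was 0.95 ± 0.32 (SE; adjusted p 0.955 in edgeR), and with the block 0.95 ± 0.072 (SE; adjusted p 0.00189 in edgeR). Without both libraries of number 1 it was 0.96 ± 0.13 (SE; adjusted p 0.0618), and with the block as well 0.96 ± 0.09 (SE; adjusted p 0.00125 in edgeR), where 0.39% of genes rose. In that last fit the 11 tested macrophage markers had positive log2 fold changes too, between 0.096 and 1.16. Of these, Axl (1.07, adjusted p 0.00397) and Csf1r (0.68, adjusted p 0.0178) rose in edgeR. On all libraries only 3 of the 11 markers were positive without the block, with a median of -0.29, and with the block the median was 0.07. Their part in the Ifi204 result was not tested. The authors' deposited table gives a log2 fold change of 0.95 with an adjusted p of 0.269 for Ifi204.

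Mnda, named for the human myeloid nuclear differentiation antigen, had 64.4, 31.4 and 29.6 CPM in KO replicates 1, 2 and 3 and 35.5, 22.7 and 24.4 CPM in control replicates 1, 2 and 3. The KO library of number 1 stood far above the rest, and the remaining KO libraries lay below control replicate 1. The log2 fold change was 0.59 ± 0.33 (SE; adjusted p 0.9995 in edgeR) and with the block 0.55 ± 0.13 (SE; adjusted p 0.148 in edgeR). The pairs of numbers 1, 2 and 3 differed by 0.86, 0.47 and 0.28, and without both libraries of number 1 the value was 0.37 ± 0.13 (SE; adjusted p 0.668 in edgeR).

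Ifi205, the p200 member once cloned as an interferon-induced gene of mouse macrophages, had 387, 175 and 140 CPM in KO and 213, 133 and 140 CPM in control replicates 1, 2 and 3. Its difference was largest in the pair of number 1 and near 0 in that of number 3, and the groups overlapped. The log2 ratio was 0.86 in the pair of number 1, 0.40 in the pair of number 2 and 0.00083 in the pair of number 3. The log2 fold change was 0.53 ± 0.38 (SE; adjusted p 0.9995 in edgeR), 0.43 ± 0.15 with the block (SE; adjusted p 0.42) and 0.21 ± 0.12 without both libraries of number 1 (SE; adjusted p 0.933 in edgeR). Leaving out KO replicate 1 alone turned its sign, to -0.0351.

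Mndal and Ifi203 had similar CPM, which are not scaled for length, while in FPKM Mndal was the higher in every library. Mndal had 380, 269 and 235 CPM in KO and 269, 246 and 205 CPM in control replicates 1, 2 and 3. Ifi203 had 348, 270 and 219 CPM in KO and 251, 250 and 211 CPM in control replicates 1, 2 and 3. Both were higher in KO within each number, but by little outside number 1: the log2 ratios of the pairs were 0.50, 0.13 and 0.20 for Mndal and 0.47, 0.11 and 0.052 for Ifi203. Their log2 fold changes were 0.29 ± 0.19 and 0.23 ± 0.17 (SE; adjusted p 0.9995 each in edgeR), and 0.28 ± 0.088 and 0.21 ± 0.095 with the block (SE; adjusted p 0.358 and 0.559). Without both libraries of number 1 they were 0.16 and 0.087.

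Aim2 had 109, 73.4 and 78.0 CPM in KO and 81.2, 64.9 and 78.2 CPM in control replicates 1, 2 and 3. Only KO replicate 1 lay outside the range of the control libraries. The log2 fold change was 0.21 ± 0.17 (SE; adjusted p 0.9995 in edgeR) and 0.20 ± 0.094 with the block (SE; adjusted p 0.571). By number the log2 ratios were 0.42, 0.18 and -0.0035, and without both libraries of number 1 the value was 0.084.

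**Figure D3:**
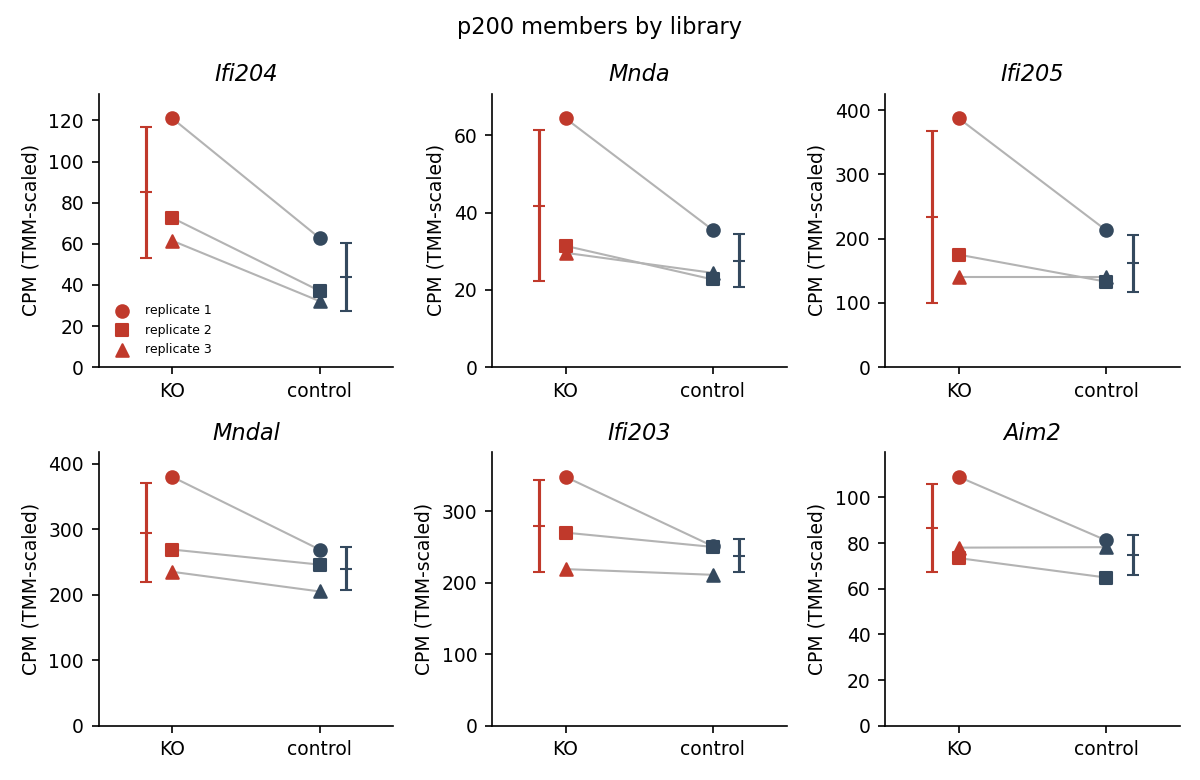
CPM of each member in every library, KO at the left and control at the right, with grey lines joining libraries of equal replicate number and bars showing the group mean ± SD (n = 3). In Ifi204 the 3 lines fall by nearly the same factor, with pair log2 ratios of 0.94 to 0.97, and in Ifi205 the line of number 3 is flat.

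Ifi204 was set against its relatives by ratios of counts within a library, chosen after the values were seen: Ifi204 over each of the other 11 tested p200 genes, and 2 ratios between other members, 13 in all. There were 1.88, 2.31 and 2.07 Ifi204 counts per Mnda count in the KO libraries, against 1.77, 1.63 and 1.31 in the control libraries. Ifi204 over Ifi205 gave 0.313, 0.414 and 0.44 in KO and 0.295, 0.278 and 0.23 in control libraries. Every KO value lay above every control value for Ifi204 over each of the other 5 members and over Pyhin1 and AI607873. The exact two-sided permutation test gave p = 0.1 for each of these 7, the smallest that 3 against 3 allows (0.186 adjusted over the 13 ratios). No ratio could thus have passed a threshold of 0.05. The 7 share the Ifi204 counts and are not independent, and the test did not use the replicate numbers. Against Pydc4, Pydc3, Gm16340 and Gm4955 the groups overlapped. Ifi204 over Pydc4 was 1.04, 1.2 and 1.1 in KO and 1.12, 1.39 and 1.08 in control libraries (exact permutation p = 0.6, adjusted 0.65). Ifi205 over Mnda averaged 5.44 ± 0.665 in KO and 5.85 ± 0.142 in control libraries (SD, n = 3 each; exact permutation p = 0.5, adjusted 0.591), and Mndal over Ifi203 averaged 1.05 ± 0.0522 in KO and 1.01 ± 0.0562 in control libraries (SD, n = 3 each; exact permutation p = 0.2, adjusted 0.325).

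The other p200 genes of the cluster had log2 fold changes of 0.41 to 1.04, all of them positive. The table has 8 of them, of which 6 were tested. With the block 2 of the 6 rose and 0 fell, beside 0.318% of all genes that rose. Without it 0 passed, and DESeq2 called 0. An unadjusted p under 0.05 was found for 4, beside 1.41% of genes that had one and were higher. Their median log2 fold change was 0.73 with and without the block. Pydc4, called Ifi213 in GENCODE M21, had 116, 60.3 and 55.8 CPM in KO and 55.8, 26.6 and 29.7 CPM in control replicates 1, 2 and 3. It was about 2.07-fold higher, with log2 ratios within the numbers of 1.05, 1.18 and 0.91, and a blocked value of 1.05 ± 0.084 (SE; adjusted p 0.00217 in edgeR). Without both libraries of number 1 it passed without the block too (1.05 ± 0.11 SE; adjusted p 0.0296 in edgeR). Pyhin1, called Ifi209 there, had 336, 185 and 205 CPM in KO and 271, 131 and 143 CPM in control replicates 1, 2 and 3. Its blocked log2 fold change was 0.44 ± 0.071 (SE; adjusted p 0.0395 in edgeR), against an adjusted p of 0.9995 without the block, and the log2 ratios of its pairs were 0.31, 0.49 and 0.52, least in number 1. Its value was 0.51 without both libraries of number 1 (adjusted p 0.177 in edgeR, and 0.0106 with the block).

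AI607873 (Ifi207 there), Pydc3 (Ifi208 there), Gm4955 (Ifi206 there) and the pseudogene Gm16340 (Ifi203-ps there) did not pass with the block, at 0.61, 0.75, 0.70 and 0.85 (adjusted p 0.0784, 0.305, 0.226 and 0.409 in edgeR). The last 3 had few counts, 15 to 86 per library. In these 3 every KO library lay above every control library, and in 0 of the 6 members, beside 3.43% of all genes tested. BC094916 (Ifi214 there) and Ifi202b were too low to test, with 4 to 15 and 0 to 1 counts per library. Of all 12 tested p200 genes, 11 were higher in KO in each of the 3 pairs, 5 of the 6 members among them, beside 15.1% of genes tested.

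**Figure D4:**
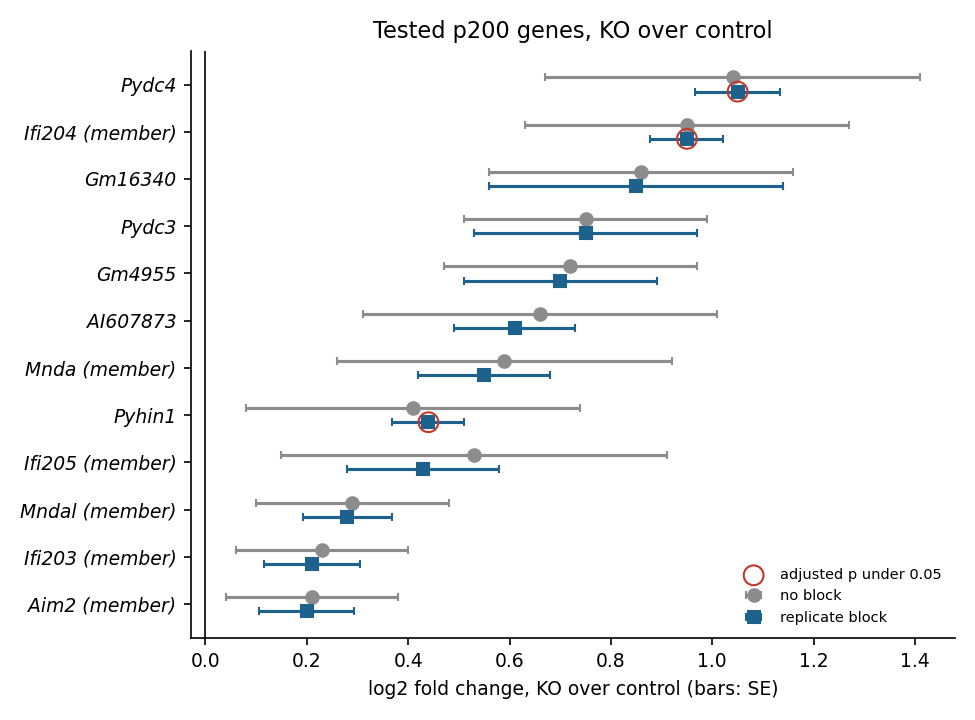
Log2 fold change, KO over control, with SE bars for the 12 tested p200 genes, without (grey circles) and with (blue squares) the replicate block. Red rings mark Pydc4, Ifi204 and Pyhin1, which passed the threshold with the block, and Aim2 and Ifi203 are lowest at 0.20 and 0.21.

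Genes beside the cluster were little expressed. Of 27 protein-coding neighbours within 500 kb, 13 were in the table. The adhesion molecule gene Cadm3 had a log2 fold change of 0.10 and the olfactory receptor gene Olfr433 of 0.33. Neither passed in edgeR (adjusted p 0.9995 each, unadjusted p 0.821 and 0.457, and blocked adjusted p 0.948 and 0.856).

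Partners of these proteins in DNA sensing and the inflammasome formed a list of 26 genes, all tested. Without the block 0 passed in edgeR, and DESeq2 called 0. An unadjusted p under 0.05 was found for 2, beside 1.41% of all genes that had one and were higher. With the block 1 of the 26 rose, beside 0.318% of all genes: Irf7, a transcription factor that amplifies type I interferon. It had 383, 204 and 164 CPM in KO and 185, 109 and 103 CPM in control replicates 1, 2 and 3, and its blocked value was 0.88 ± 0.085 (SE; adjusted p 0.00477 in edgeR). Without both libraries of number 1 the blocked count was 2, Irf7 and Mefv, beside 0.39% of all genes that rose. Mefv is named after its value was seen. The nucleic acid sensor Zbp1 (0.79, adjusted p 0.0739 with the block in edgeR) and the DNA exonuclease Trex1 (0.45, adjusted p 0.333) did not pass. The list's median log2 fold change was 0.13. The inflammasome adaptor Pycard (0.12), caspase-1 gene Casp1 (0.18), the pore-forming Gsdmd (0.21), the cGAS gene Mb21d1 (0.20) and the STING gene Tmem173 (0.057), picked here for their place in the pathway, did not pass in edgeR (blocked adjusted p 0.763, 0.535, 0.505, 0.422 and 0.867).

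Of 17 interferon receptor and signalling genes 1 rose with the block, beside 0.318% of all genes. It was Usp18, a negative regulator of the receptor (0.88 ± 0.077 SE with the block, adjusted p 0.00314 in edgeR). Without the block 0 passed, and DESeq2 called 0. An unadjusted p under 0.05 was found for 2, beside 1.41% of all genes that had one and were higher. With both libraries of number 1 left out, Usp18 was again the only one of the list to rise with the block (0.89, adjusted p 0.00259 in edgeR). Irf1 (0.39, adjusted p 0.0995) and Irf2 (-0.22, adjusted p 0.553), transcription factors of the interferon system, did not pass with the block in edgeR. Of 24 core interferon-stimulated genes 12 rose with the block and 0 fell, beside 0.318% of all genes that rose. Without the block 0 passed in edgeR, DESeq2 called 0, and the median log2 fold change was 0.54. An unadjusted p under 0.05 was found for 14, beside 1.41% of all genes that had one and were higher. Without both libraries of number 1, 7 rose with the block, beside 0.39% of all genes. Among the 12 were the antiviral genes Rsad2 (0.85, adjusted p 0.00477), Oas3 (0.70, adjusted p 0.0115), Oasl1 (0.81, adjusted p 0.014), Mx1 (0.84, adjusted p 0.024) and Ifit2 (0.77, adjusted p 0.0448), all with the block in edgeR. The other 7 were Oas1a, Oas2, Ifih1, Cmpk2, Ifi44, Ifi27l2a and Bst2, between 0.40 and 0.86.

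The genes whose pattern over the 6 libraries was nearest were found by the root mean square difference of log2 CPM after each gene's mean was subtracted, among 10306 genes with a mean log2 CPM of at least 3. Nearest to the mean of the 6 members were Epsti1 (0.029), Trim30a (0.033), Tdrd7 (0.037), Parp12 (0.053) and Csf2ra (0.055). Nearest to Ifi204 were Irf7 (0.089) and Usp18 (0.106), and nearest to Mnda were AI607873 (0.077) and Phf11b (0.082). Slfn5 (0.068) and Adap2 (0.078) were nearest to Ifi205, Capzb (0.025) and Brms1 (0.027) to Ifi203, Itgal (0.027) and Tmem131 (0.038) to Mndal, and Dock5 (0.019) and Dna2 (0.031) to Aim2. The profiles of Ifi204, Ifi205 and Mnda ranged over 1.91, 1.54 and 1.49 log2 units, and those of Mndal, Aim2 and Ifi203 over 0.89, 0.74 and 0.72, so small differences come more easily for the last 3.

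Markers of other cells also differed between libraries, some lists in the direction of the members and others against it. KO replicate 1 had the highest CPM of all 6 members and the highest summed level of 13 dendritic cell markers, 2717 CPM against 1340 and 1314 CPM in the other KO libraries and 1318 to 1803 CPM in the control libraries (12 were tested and 0 passed in edgeR; with the block 1 had an unadjusted p under 0.05, and DESeq2 called 0). Much of the dendritic cell sum was Irf8, which is also in the interferon signalling list: 1411, 667 and 680 CPM in KO replicates 1, 2 and 3. The median of the dendritic cell list, with each gene's mean subtracted, was also highest in KO replicate 1 (0.87). Control replicate 1, with the highest macrophage marker sum, had the highest level of the control libraries in all 6 members, by a narrow margin in Ifi203. The macrophage sums ranged over 279 to 841 CPM in KO and 209 to 1083 CPM in control libraries, and of the 13 markers 11 were tested, 0 passed in edgeR (with the block, 1 had an unadjusted p under 0.05, DESeq2 called 0, and 2, Axl and Csf1r, rose with the block without both libraries of number 1) and Marco had at most 3 counts in any library. The 14 monocyte and neutrophil markers summed to 2339 to 2978 CPM in KO and 2065 to 3293 CPM in control libraries. Of these 1, Ms4a6c, rose with the block, beside 0.318% of all genes that rose. None passed without it in edgeR (7 had an unadjusted p under 0.05, beside 515 of all 13217 genes in either direction). DESeq2 called 4 lower, beside 120 of 13217 genes. Without the block the median log2 fold change of the 14 was -0.56, with 4 of them positive, and with it -0.59. The 7 with an unadjusted p under 0.05 were all lower in KO: S100a8, S100a9, Ngp, Camp, Ltf, Retnlg and Mmp8. With both libraries of number 1 left out, F13a1 (0.58, adjusted p 0.0366) and Ms4a6c (0.64, adjusted p 0.00719) rose with the block in edgeR and 0 fell, beside 0.39% of all genes that rose. The 12 gate and stem cell markers summed to 1818 to 2429 CPM in KO and 1861 to 2594 CPM in control libraries, lowest in number 1 of each group, with 0 passing in edgeR (with the block, 3 had an unadjusted p under 0.05, and DESeq2 called 0). B and plasma cell markers summed to 534 to 1552 CPM in KO and 2849 to 4200 CPM in control libraries, and 6 of the 9 tested fell with the block, beside 1.04% of all genes. Without both libraries of number 1, 6 fell with the block, beside 153 of 13337 genes. Without the block 0 passed in edgeR (8 had an unadjusted p under 0.05, and DESeq2 called 5 lower, beside 120 of 13217 genes). T and NK cell markers summed to 68.8 to 115 CPM in KO and 113 to 135 CPM in control libraries, and 2 of the 9 tested, Cd28 and Ctla4, fell with the block, beside 1.04% of all genes. This held for Cd28 without both libraries of number 1 (adjusted p 0.0262 in edgeR) and not for Ctla4 (adjusted p 0.0865). Without the block 0 passed (3 had an unadjusted p under 0.05, and DESeq2 called 2 lower, beside 120 of 13217 genes). Erythroid markers summed to 15.5 to 57.0 CPM in KO and 21.4 to 85.0 CPM in control libraries, with 0 passing in edgeR (with the block, 1 had an unadjusted p under 0.05, and DESeq2 called 0). The part of these cells in the levels of the other members was likewise not tested.

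**Figure D5:**
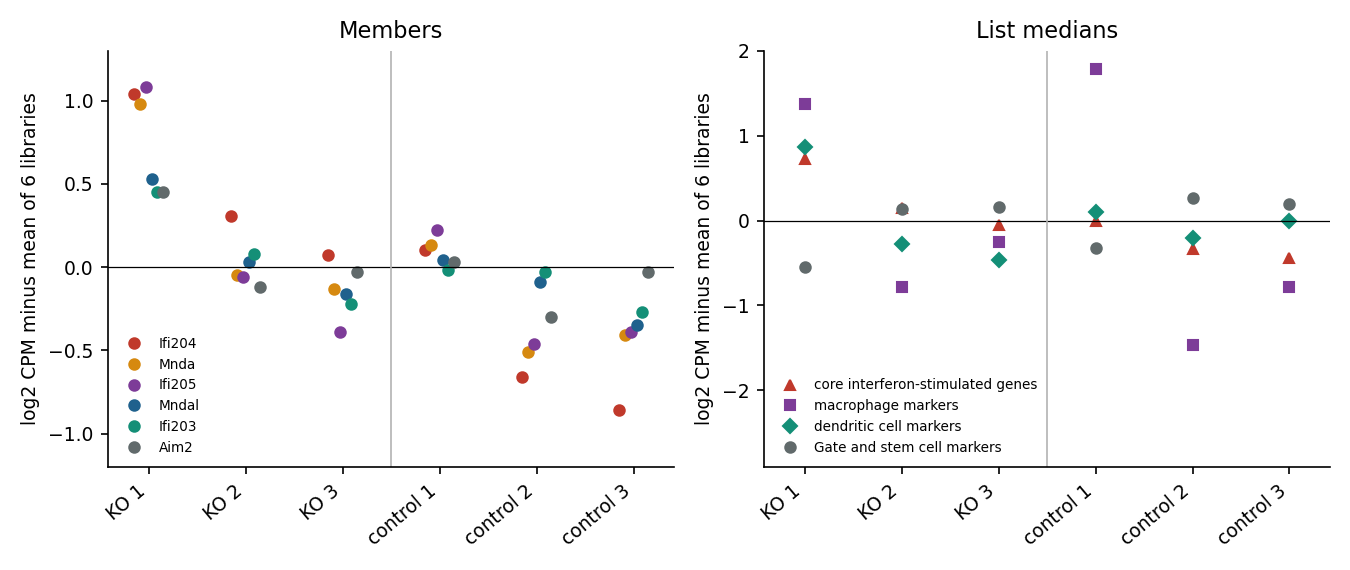
Log2 CPM minus the mean of the 6 libraries for the 6 members (left) and for the medians of 4 gene lists (right), KO libraries left of the grey line and control libraries right of it. KO replicate 1 is highest in every member (0.45 to 1.08), and the macrophage median is highest in replicate 1 of both groups (1.37 in KO and 1.79 in control).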

How the data were processed

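RNA-seq of 6 libraries was compared, 3 KO and 3 control, grouped and numbered by the labels. Raw counts per gene and FPKM were deposited by the authors with their own log2 fold changes and adjusted p-values. The submitters' processing notes name mm10, Novoalign 2.08.01 and DESeq2 1.10.1. The deposited FPKM equal counts per library total and per whole-number gene length (within 0.05 bases for 100.0% of genes above 20 counts).

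Counts were fitted with edgeR 4.0.16 in R 4.3.3 (TMM, filterByExpr with minimum count 10 and minimum total 15, quasi-likelihood F test, two-sided). CPM are TMM-scaled, and log2 CPM used a prior count of 2. SE were derived from the F statistic. A count of 0 allows up to 3 counts, or 0.326 to 0.460 CPM. DESeq2 1.42.0 and limma-voom 3.58.1 were alternatives. Permutation tests used scipy 1.17.1. Genes were annotated by identifier with GENCODE M21, and sequences are from RefSeq (GRCm38.p6).

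The numbers recur in both groups. Deviations from the group means correlated by 0.57, 0.53 and 0.22 in equally numbered libraries 1, 2 and 3, each above the limit of 0.1 set for pairing. Unequal numbers gave -0.51 to 0.13, and KO replicate 2 with control replicate 3, at 0.13, exceeded the limit too. The limit thus does not by itself set pairs apart, and the pairing rests on these same data. Deviations from a group mean cancel out over the libraries of the group, so positive correlations force negative ones elsewhere. The negative values are therefore no further evidence of pairing. The labels do not say what the numbers share. The fit without a block (4 residual degrees of freedom) stayed the main one, and the block left 2. Replicates differed by more than sampling noise (chi-square divided by its degrees of freedom 7.80 or more).

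Members and lists were chosen with earlier results of these data known. The genes named are the members, the other p200 genes with counts, the tested neighbours within 500 kb, the nearest genes by pattern (5 to the members' mean, 2 to each member), and, of the 3 lists of the pathway, those passing in either fit and the 3 with the smallest p in each. Not every tested neighbour is reported here. In a simulation of this KO and control comparison (13076 genes), the fit without the block found 10% of genes set to differ 1.5-fold, 66% of those at 2-fold and 100% of those at 4-fold. It gave every gene the same spread between libraries beyond sampling noise and let equally numbered libraries share nothing. These shares therefore need not hold for the real libraries, above all with the block.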

Additional observations from a re-analysis of the deposited data

How the results depend on the processing

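The 6 members were refitted under 16 alternatives. Of 96 fold changes 89 had the same sign and the same call, 6 newly passed and 1 reversed, Ifi205 without KO replicate 1 (-0.0351). Ifi204 passed with the replicate block (0.95), and with the block without both libraries of number 1, 2 or 3 (0.96, 0.94 and 0.96, adjusted p 0.00125, 0.0262 and 8.57e-05 in edgeR). These last 3 fits were added after the data were seen and had 1 residual degree of freedom. Without both of number 3, Ifi205 (0.64, adjusted p 0.00684) and Mnda (0.68, adjusted p 0.0142) passed too. The count of members called was thus 0, and 1 with the replicate block and with the block without number 1 or 2, and 3 with the block without number 3. Beside these, 42 of 13217 genes rose with the block on all libraries. Among all genes tested, 52 of 13337 rose with the block without number 1, 4 of 13232 without number 2 and 236 of 13373 without number 3. No other member's call changed with the block on all libraries. Leaving out 1 library gave 0.61 (without KO replicate 1) to 1.3 (without control replicate 1) for Ifi204, 0.15 to 0.82 for Mnda, -0.0351 to 0.80 for Ifi205, 0.0746 to 0.44 for Mndal, 0.0473 to 0.38 for Ifi203 and 0.0228 to 0.32 for Aim2. Over all genes 21 were called, against 97 without a low-count filter, 127 with DESeq2, 180 with the replicate block, and 205, 98 and 471 with the block without both libraries of number 1, 2 or 3. Leaving out 1 library gave 0 to 27, with 0 called in edgeR without control replicate 1 or control replicate 3 (766 and 358 with an unadjusted p under 0.05). With the longest transcript as length, 2 of the 6 members kept their place in the order of levels. The causes of these changes were not tested. Of genes simulated to differ 1.5-fold 10% were found by the fit without the block. In the setting of that simulation, differences of the size seen in Aim2, Ifi203 and Mndal would mostly be missed. Its equally numbered libraries shared nothing, so it cannot say how often the block would find them here.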
